A study of Mus musculus with 6 samples.

Results

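Matrix metalloproteinases (MMPs), the ADAMTS metalloproteinases, their ADAMTS-like relatives (ADAMTSL) and the tissue inhibitors of metalloproteinases (TIMPs) were examined in primary cultures of mouse renal tubule epithelial cells (RTECs) with and without TGF-β1. Members were taken by gene symbol among the protein-coding genes of the count files, which gave 50 genes of 46517, namely 22 MMPs, 4 TIMPs, 19 ADAMTS and 5 ADAMTSL genes. The rule itself uses names and no measured value. Mmp1a, which the annotation calls a polymorphic pseudogene, was left out and had no reads.

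Poly(A) RNA was sequenced from 6 cultures, 3 untreated controls (CTL) and 3 treated with TGF-β1. All came from kidneys of wild-type FvB mice, labelled as 4 to 6 weeks old, and were grown with 10% serum and 20 ng/ml epidermal growth factor. At 70% confluence the serum was withdrawn for 24 h, and the TGF-β1 group was then given 50 ng/ml TGF-β1 for 24 h. The comparison asks what this profibrotic cytokine does to the expression of matrix-cleaving enzymes and their inhibitors in tubule cells. No vehicle is named for the CTL group. The cells were digested from whole kidney without a sorting step, so they hold several tubule segments, and the labels do not say whether the cultures of a group came from separate animals. The p-values therefore measure the spread between these cultures.

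MMPs are zinc-dependent proteases that cut collagens, fibronectin and other matrix proteins and are made as inactive proforms, and TIMPs bind and block the active enzymes. The ADAMTS family holds proteoglycanases, which cut versican and aggrecan, procollagen propeptidases, which trim fibrillar procollagens, and enzymes with other substrates, while ADAMTSL proteins lack the protease domain and bind the matrix. In the kidney, TGF-β1 is known as a driver of fibrosis, in which matrix is laid down faster than it is removed.

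Each library held between 28313080 and 34183497 reads on genes, at which 3 counts, the limit that a count of 0 allows, correspond to between 0.0878 and 0.106 counts scaled to library size (CPM). Among TGF-β response genes, Skil and Smad7 were higher in the TGF-β1 cultures (log2 fold changes 0.76 and 0.55, adjusted p = 0.00379 and 0.014 by edgeR). Ccn2 and Tgfbi were not called on condition only (log2 fold changes 0.18 and -0.18, adjusted p = 0.22 and 0.747 by edgeR). Ccn2 did not overlap between the groups and was called higher with the replicate block described below (adjusted p = 0.0438 by edgeR). Tgfbi was not (0.655). The epithelial markers Krt8, Krt18, Epcam and Cdh1 averaged 5078 to 18331 normalized counts in the groups. Slc34a1, Slc12a3 and Aqp2, which define differentiated proximal tubule, distal convoluted tubule and collecting duct, averaged under 10. Other listed segment markers were higher. Lrp2, Aqp1 and Cubn, which also mark the proximal tubule, averaged 2203, 353 and 142 in CTL and 1155, 46.9 and 152 with TGF-β1. Umod and Slc12a1 averaged 34.5 and 21.6 in CTL and 17.4 and 24.2 with TGF-β1. Of the whole list of 16 tubule markers 13 were tested, with 0 higher and 4 lower with TGF-β1 (9 lower with the replicate block described below). The 4 were Aqp1, Cdh16, Lrp2 and Pax8 (log2 fold changes -2.91, -1.50, -0.93 and -0.77, adjusted p = 0.00919, 0.00922, 0.0165 and 0.00436 by edgeR). Replicate 2 stood apart in both groups. The tubule list summed to 1379 and 1043 CPM in CTL and TGF-β1 replicate 2 against 1982 to 3006 in the other 4 cultures. A list of 8 fibroblast markers, most of it Pdgfrb, summed to 247 CPM in CTL replicate 2 against 110 and 81.4 in CTL replicates 1 and 3, and to 118 in TGF-β1 replicate 2 against 55.3 and 50.9. This sum was thus lower with TGF-β1 in every pair, and of the 5 tested fibroblast markers 0 were called on condition only and 2 were lower with the block. The 4 Y-linked genes counted summed to 154 and 136 CPM in the replicate 2 cultures and to at most 0.177 elsewhere, although the study's methods describe male mice, of an age range that also differs in part from the labels. The part of these differences in the results was not tested, and in bulk RNA fewer cells of a type and less RNA per cell cannot be told apart.

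The family moved in both directions at once. Of the 38 members with enough reads to test, 7 were higher with TGF-β1, which is 18.4% against 5.00% of all genes tested, and 6 were lower, which is 15.8% against 6.69% (edgeR quasi-likelihood test on condition only, adjusted p under 0.05 over 15862 genes). The 7 higher members were Adamts4, Adamts6, Adamts7, Adamts16, Adamtsl2, Adamtsl3 and Mmp12, and the 6 lower members were Adamts1, Adamts5, Adamts9, Adamts15, Adamtsl4 and Mmp11. The median log2 fold change over the tested members was 0.07, while the median of its absolute value was 0.62 against 0.17 over all genes. By family, 8 of 15 tested ADAMTS and 3 of 5 ADAMTSL genes were called on condition only, against 2 of 15 MMPs and 0 of 3 TIMPs. The 2 MMPs were 1 higher and 1 lower, beside 5.00% and 6.69% of all genes. Scaling the libraries by their size alone gave 6 higher and 7 lower members, and for all genes it moved the counts from 793 higher and 1061 lower to 508 and 1467.

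Same-numbered CTL and TGF-β1 cultures deviated together from their group means over all genes, so a second fit held the replicate number as a block. With the block, 14 members were higher (36.8% against 15.1% of all genes) and 10 lower (26.3% against 19.1%). They included all 13 members called without it and 11 more, named below. By family, the block called 4 of 15 tested MMPs higher and 4 lower, and 7 and 4 of 15 ADAMTS genes. Of 5 ADAMTSL genes 2 were higher and 2 lower, and of 3 TIMPs 1 was higher and 0 lower. The 9 tested members whose 3 TGF-β1 values all lay above the 3 CTL values (background 17.2%) and the 8 that lay below (background 18.0%) were all called in one fit or the other. The remaining 14 tested members were called in neither, with log2 fold changes from -0.71 to 0.22.

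**Figure D1:**
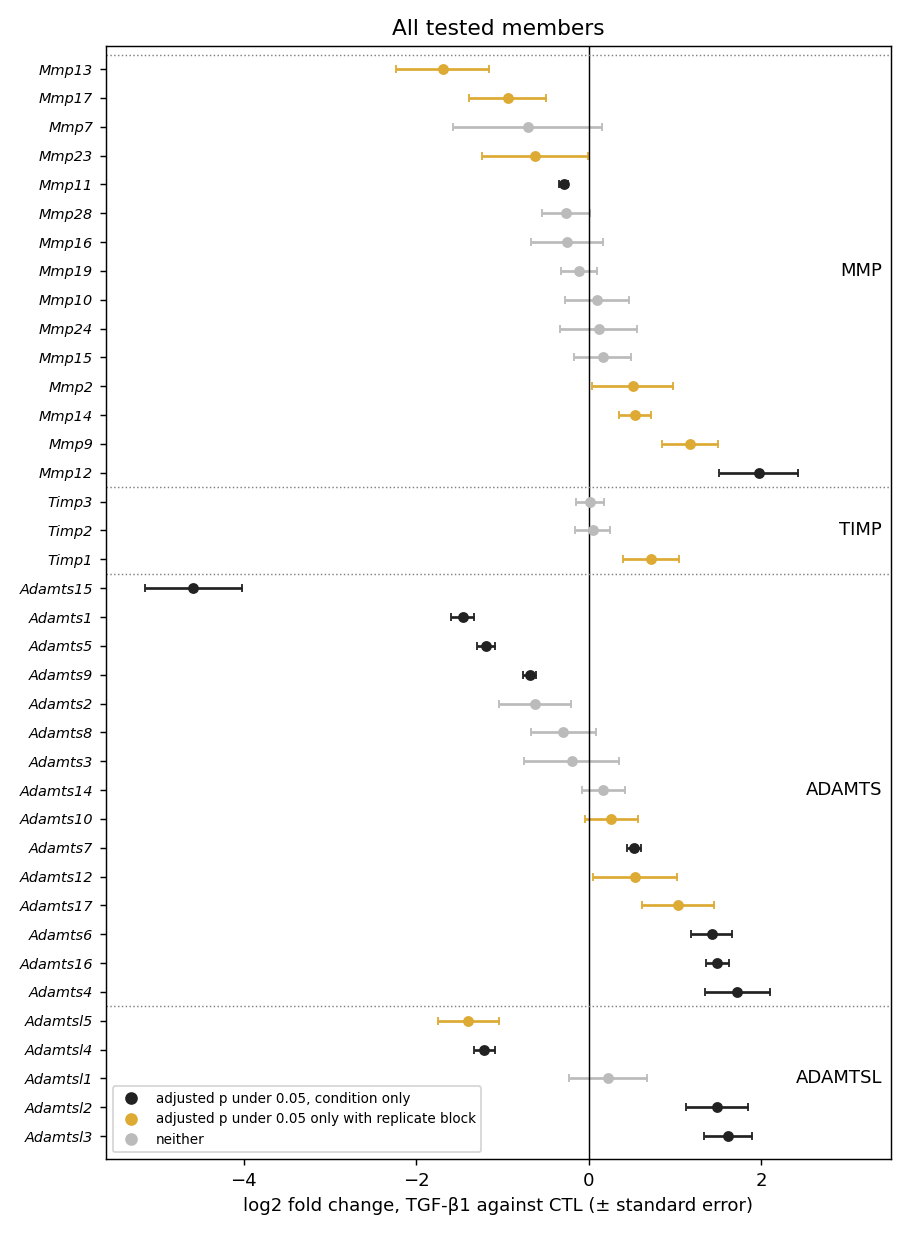
Log2 fold change of TGF-β1 against CTL (x axis, bars show ± standard error) for the 38 tested members, grouped by family and ordered by value. Black points passed the test on condition only, yellow points passed with the replicate block and not on condition only, and grey points passed neither; the ADAMTS genes reach from -4.58 for Adamts15 to 1.72 for Adamts4, and Timp2 and Timp3 lie at 0.05 and 0.02.

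The proteoglycanases split. Of 7 members in this group 6 were tested, and Adamts1, Adamts5, Adamts9 and Adamts15 fell while Adamts4 rose. Adamts1, a secreted protease that cleaves versican and aggrecan, was by read count per kb of exon the highest ADAMTS gene. The gene (ENSMUSG00000022893.13) lies at chr16:85793827-85803113 (GRCm38, minus strand). Its normalized counts were 30391, 34689 and 24055 in CTL replicates 1, 2 and 3 and 10660, 10847 and 10927 in the TGF-β1 replicates. The TGF-β1 cultures lay close together and far below every CTL culture. The fitted TGF-β1 level was 0.364 of that in CTL (log2 fold change -1.46 ± 0.13 SE, adjusted p = 0.0038 by edgeR).

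Adamts5, an aggrecanase, is the neighbour of Adamts1 on the same strand (chr16:85856173-85901828). It stood at 12045, 13077 and 10086 normalized counts in CTL and at 5253, 5366 and 4809 in the TGF-β1 cultures. The groups did not overlap, and the TGF-β1 level was 0.438 of CTL (log2 fold change -1.19 ± 0.11 SE, adjusted p = 0.00379 by edgeR). The ratio of Adamts1 to Adamts5 per kb of exon was 5.14, 5.40 and 4.85 in CTL and 4.13, 4.11 and 4.62 with TGF-β1, so both genes of the pair were lower by a similar factor. Adamts9, which cleaves versican and aggrecan, fell less, from 594 ± 23.0 to 370 ± 18.8 normalized counts (SD, n = 3; log2 fold change -0.68, adjusted p = 0.0061 by edgeR); 9.18% of its exon bases are shared with a gene on the opposite strand.

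Adamts15, another aggrecanase, showed the largest change of any tested member. Its raw reads were 260, 332 and 121 in CTL and 4, 17 and 8 in the TGF-β1 cultures. Normalized counts were 251, 319 and 132 in CTL and 4.06, 17.6 and 7.51 with TGF-β1, so that the lowest CTL culture was still well above the highest TGF-β1 culture. The fitted level with TGF-β1 was 0.0417 of CTL (log2 fold change -4.58 ± 0.56 SE, adjusted p = 0.00902 by edgeR), and it was -5.30 on the log2 scale without TGF-β1 replicate 2. Adamts8, which lies beside it on the other strand (chr9:30942562-30963838, with Adamts15 at chr9:30899155-30922452), was low in all cultures, at 21.9 ± 7.31 and 17.7 ± 6.12 normalized counts (SD, n = 3), and was not called.

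Adamts4 (aggrecanase-1, ENSMUSG00000006403.11, chr1:171250421-171260637) went the other way. It was at 500, 847 and 488 normalized counts in CTL and at 1641, 3072 and 1355 in the TGF-β1 cultures. Replicate 2 was the highest in both groups, and no TGF-β1 value reached down to a CTL value. The fold was 3.30 (log2 fold change 1.72 ± 0.38 SE, adjusted p = 0.0402 by edgeR). This call was close to the threshold. It held in 1 of the 6 fits that left out a single culture, that without CTL replicate 2 (adjusted p = 0.0482 by edgeR), and was lost in the fits without CTL replicate 1, CTL replicate 3 or TGF-β1 replicates 1, 2 or 3, where the adjusted p was between 0.0511 and 0.159. Within same-numbered pairs the log2 ratios were 1.71, 1.86 and 1.47, and with the block the adjusted p was 6.06e-06 by edgeR.

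Adamts4 thereby came near Adamts5 in level. Per kb of exon, the ratio of Adamts4 to Adamts5 was 0.0932, 0.145 and 0.109 in CTL and 0.701, 1.28 and 0.632 with TGF-β1. Adamts1 remained above both, with a ratio to Adamts4 that went from 45.6 ± 9.02 in CTL to 5.47 ± 2.09 with TGF-β1 (SD, n = 3). These ratios were not tested.

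**Figure D2:**
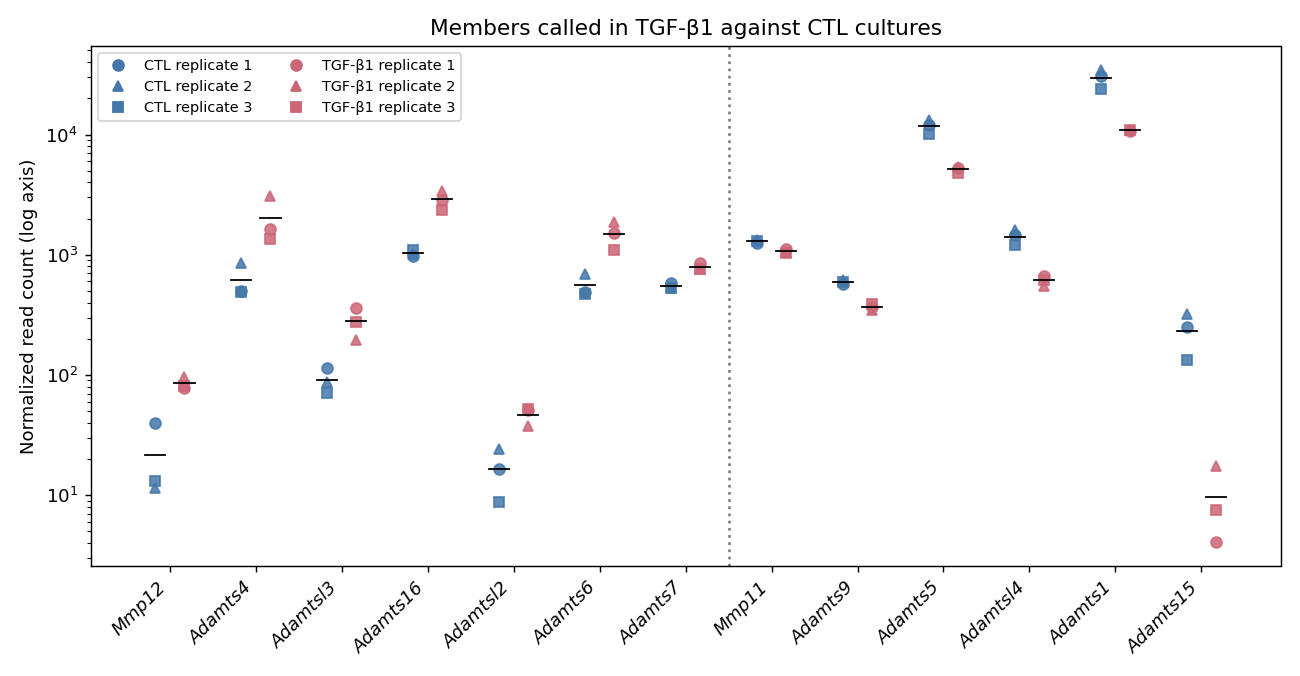
Normalized read count (y axis, log scale) of the 13 members called on condition only, with CTL cultures in blue, TGF-β1 cultures in red, a symbol for each replicate number and a bar at each group mean. The 7 members left of the dotted line are higher and the 6 right of it lower with TGF-β1; no pair of groups overlaps, and Adamts15 drops from 132 or more to 17.6 or less.

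ADAMTS genes outside the proteoglycanase group were called only upward. Adamts16, whose substrates include fibronectin, was at 984, 1008 and 1087 normalized counts in CTL and 2859, 3410 and 2378 with TGF-β1. Its CTL values spanned little and every TGF-β1 value was above 2 times the highest of them (fold 2.81, log2 fold change 1.49 ± 0.13 SE, adjusted p = 0.00385 by edgeR). Of the 7 higher members it was the one that passed in all 6 fits without a single culture. Adamts6 rose from 494, 698 and 475 to 1516, 1871 and 1095 normalized counts (log2 fold change 1.43 ± 0.24 SE, adjusted p = 0.02 by edgeR), and lost its call without CTL replicate 1, CTL replicate 3 or TGF-β1 replicate 1 (adjusted p up to 0.099). Adamts7, which cleaves cartilage oligomeric matrix protein (COMP), rose from 548 ± 28.7 to 789 ± 51.0 (SD, n = 3; log2 fold change 0.53, adjusted p = 0.0122 by edgeR) and lost its call without replicate 1 of either group (adjusted p = 0.0556 and 0.0572 by edgeR).

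Adamts12, Adamts17 and Adamts10 were called higher with the block and not on condition only over all 6 cultures. Without both replicate 2 cultures, the condition-only fit called Adamts12 and Adamts17 (adjusted p = 0.00511 and 0.016 by edgeR) and not Adamts10 (0.386). None of these genes was called in the 6 condition-only fits without a single culture, or without both cultures of replicate 1 or 3. Adamts12, which like Adamts7 cleaves COMP, was at 1074, 2647 and 988 normalized counts in CTL and 1758, 3471 and 1597 with TGF-β1. CTL replicate 2 was above TGF-β1 replicates 1 and 3, so the groups overlapped, but each pair moved upward (adjusted p = 0.524 on condition only and 0.000548 with the block, edgeR). Adamts17 had 114, 51.0 and 135 normalized counts in CTL and 221, 127 and 265 with TGF-β1, with replicate 2 lowest in both groups (adjusted p = 0.174 and 0.000461 by edgeR). Adamts10, which acts on fibrillin microfibrils, differed by 0.26 on the log2 scale (adjusted p = 0.63 and 0.013 by edgeR), and its blocked call was lost when the libraries were scaled by size alone (adjusted p = 0.0507). The procollagen propeptidases Adamts2, Adamts3 and Adamts14 were called in neither fit, with log2 fold changes of -0.62, -0.19 and 0.17.

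Among the ADAMTSL genes, Adamtsl4, which binds fibrillin microfibrils, fell from 1452, 1594 and 1196 normalized counts in CTL to 665, 553 and 618 with TGF-β1. The groups were well apart (log2 fold change -1.21 ± 0.12 SE, adjusted p = 0.00541 by edgeR), and the call held in every fit without a single culture. Adamtsl3 was at 115, 87.5 and 70.9 normalized counts in CTL and 364, 197 and 277 with TGF-β1 (log2 fold change 1.61 ± 0.28 SE, adjusted p = 0.0202 by edgeR). Adamtsl2, which binds latent TGF-β binding protein and fibrillin, was low, at 16.4, 24.0 and 8.72 against 50.8, 37.3 and 51.6 normalized counts (log2 fold change 1.49 ± 0.36 SE, adjusted p = 0.0466 by edgeR). Both rises passed in 1 of the 6 fits without a single culture, Adamtsl3 without TGF-β1 replicate 2 and Adamtsl2 without CTL replicate 2, and were lost without any one of the other cultures (highest adjusted p 0.0686 and 0.172 by edgeR). Adamtsl5 was lower in every TGF-β1 culture than in any CTL culture, at 170, 212 and 100 against 70.1, 74.6 and 39.4 normalized counts. It passed with the block and not on condition only (adjusted p = 0.000173 and 0.0564 by edgeR). Condition-only fits passed it without CTL replicate 3 (adjusted p = 0.0371 by edgeR), by library size only (0.0455 by edgeR) and by DESeq2 (0.00327). They did not call it without any one of the other cultures, or without both replicate 2 cultures (adjusted p = 0.0747 by edgeR).

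The MMPs with the most reads were gelatinase A (Mmp2, chr8:92827291-92853420) and the membrane-anchored Mmp14, which activates pro-Mmp2, and both were higher in the TGF-β1 culture of every pair. Mmp2 was at 19252, 37762 and 14201 normalized counts in CTL and 26862, 52532 and 22107 with TGF-β1. The groups overlapped because replicate 2 was more than 2 times the mean of replicates 1 and 3 in both groups (2.26 times in CTL and 2.15 times with TGF-β1). The log2 ratios within pairs were 0.48, 0.48 and 0.64. On condition only Mmp2 was not called (log2 fold change 0.51 ± 0.47 SE, adjusted p = 0.53 by edgeR), and with the block it was (0.53, adjusted p = 0.000258 by edgeR). Mmp14 was at 9528, 12616 and 9556 normalized counts in CTL and 13806, 19240 and 12931 with TGF-β1, with all 3 TGF-β1 values above the CTL values, log2 ratios within pairs of 0.54, 0.61 and 0.44, and an adjusted p of 0.127 on condition only and 0.000185 with the block (edgeR).

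Gelatinase B (Mmp9) had the opposite replicate order. It was at 595, 349 and 725 normalized counts in CTL and 1293, 870 and 1591 with TGF-β1, with replicate 2 the lowest of each group and all TGF-β1 values above all CTL values. Its log2 ratios within pairs were 1.12, 1.32 and 1.13, and the adjusted p was 0.073 on condition only and 1.2e-05 with the block (edgeR). Without both replicate 2 cultures, the fit on condition only called Mmp9 and Mmp14 (adjusted p = 0.00832 and 0.00651 by edgeR). It did not call Mmp2, Mmp17 or Mmp23 (0.104, 0.0595 and 0.0791). Neither Mmp9 nor Mmp14 was called in the 6 condition-only fits without a single culture, or without both cultures of replicate 1 or 3. DESeq2 called Mmp9 and Mmp14 over all 6 cultures (adjusted p = 0.00236 and 0.0357). On simulated data 22.6% of DESeq2 calls were false, against 4.96% for edgeR on condition only and 14% with the block. In that simulation 200 of 15674 genes changed, whereas the real fit on condition only called 793 genes higher and 1061 lower. The false shares therefore do not carry over to the calls made here. Mmp15, a second membrane-anchored MMP and the third by level, was at 4109, 2309 and 5378 in CTL and 4873, 3246 and 5093 with TGF-β1, and was called in neither fit (adjusted p = 0.79 and 0.168 by edgeR). Mmp17 and Mmp23 were called lower with the block and not on condition only (log2 fold changes -0.86 and -0.64, adjusted p = 0.00313 and 0.00245 by edgeR). For both, replicate 2 was the highest of each group, at 910 and 381 normalized counts of Mmp17 and 618 and 418 of Mmp23 in CTL and TGF-β1 replicate 2, against at most 399 and 273 in the other CTL cultures.

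Mmp11 (stromelysin-3) fell by a small and even step, from 1260, 1338 and 1308 to 1114, 1048 and 1035 normalized counts. No values overlapped (log2 fold change -0.29, adjusted p = 0.0252 by edgeR), yet the call was lost without any one of the 6 cultures (adjusted p 0.0542 to 0.0941), and 5.58% of its exon bases lie opposite Chchd10. Replicate 2 was the highest culture of both groups for 20 of the 38 tested members (52.6% against 24.9% of all genes) and the lowest of both for 6 (15.8% against 24.9%).

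**Figure D3:**
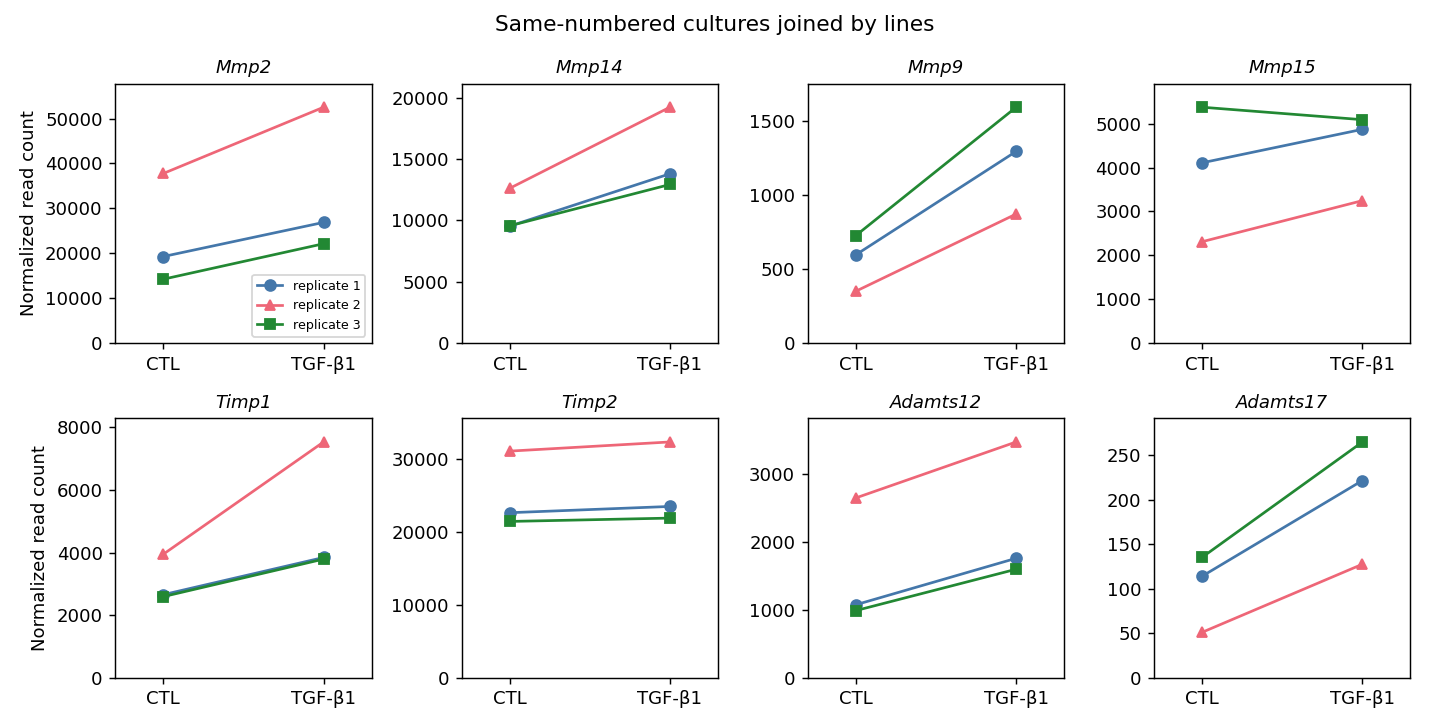
Normalized read count (y axes, each from 0) of 8 members in CTL and TGF-β1 cultures, with lines that join cultures of the same replicate number. For Mmp2 the 3 lines all run upward, from 14201, 19252 and 37762 to 22107, 26862 and 52532, while the groups overlap, Mmp9 and Adamts17 have replicate 2 at the bottom, and Timp2 is level in each pair.

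Of the 50 members, 12 lie on chromosome 9, and 9 of these are MMP genes in one cluster between positions 7272514 and 7699585. Only Mmp13, Mmp12, Mmp10 and Mmp7 had enough reads to test there, all at under 100 normalized counts. Mmp12 (macrophage elastase) and Mmp13 (collagenase-3), which are next to each other, had opposite values. Mmp12 was at 39.6, 11.5 and 13.1 normalized counts in CTL and 78.2, 96.3 and 80.7 with TGF-β1. Its TGF-β1 cultures were all about as high as one another and above all CTL cultures (log2 fold change 1.97 ± 0.46 SE, adjusted p = 0.0436 by edgeR). CTL replicate 1 was the CTL culture nearest to them, and without it the log2 fold change was 2.78 (adjusted p = 0.0217 by edgeR); the call was lost without any one of the other 5 cultures (highest adjusted p 0.126). Of the exon bases of Mmp12, 2.17% lie opposite Mmp1b.

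Mmp13 was at 21.2, 23.1 and 46.9 normalized counts in CTL and 13.2, 3.11 and 11.3 with TGF-β1. All TGF-β1 values were below all CTL values, and Mmp13 passed with the block (log2 fold change -1.71, adjusted p = 0.00942 by edgeR, against 0.0973 on condition only). Without both replicate 2 cultures the condition-only fit did not call it either (adjusted p = 0.0997 by edgeR). Mmp10 was level at 15.6 ± 5.57 and 16.5 ± 4.67 (SD, n = 3). Mmp7 (matrilysin) ran from 4.81 in CTL replicate 2 to 60.0 in CTL replicate 3 and from 6.21 to 27.2 in the TGF-β1 cultures, a spread that covers the difference between the groups. Mmp12 and Mmp9 are also known from leukocytes, whose part in these values was not tested. The 9 genes of the leukocyte list summed to 9.61 to 22.0 CPM in CTL and 6.56 to 18.1 CPM with TGF-β1. Of the 6 tested, 0 were higher and 1, Csf1r, was lower. Lyz2, Csf1r and Cd68 averaged 271, 129 and 52.1 normalized counts in CTL and 237, 51.4 and 59.5 with TGF-β1. Ptprc, Adgre1 and Itgam averaged 30.5, 24.3 and 20.9 in CTL and 19.3, 26.7 and 23.0 with TGF-β1. Cd3e and S100a8 had at most 1 read in every library.

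Promoter sequence is shown for this cluster because its members share a motif and yet differ in level and direction. In the RefSeq windows (GRCm38.p6, from 250 bases before to 50 bases after each annotated start), which exist for 35 of the 50 members, the AP-1 motif TGANTCA, read on both strands, occurred in 7 of the 9 cluster members and in 0 of the 26 other members with a window. Counted by window, this was 7 of 11 in the cluster and 0 of 27 for the other members, against 7.81% of all 32851 windows. The 31 bases around each match follow 5′ to 3′ on the gene's strand, with the match in capitals, in chromosome order.
Mmp13 (chr9:7272467-7272497, plus): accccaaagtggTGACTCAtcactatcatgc
Mmp12 (chr9:7347318-7347348, plus): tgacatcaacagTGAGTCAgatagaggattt
Mmp1b (chr9:7388101-7388131, minus): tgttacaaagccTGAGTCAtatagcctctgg
Mmp3 (chr9:7445764-7445794, plus): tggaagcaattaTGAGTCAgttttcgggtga
Mmp10 (chr9:7502267-7502297, plus): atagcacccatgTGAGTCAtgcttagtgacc
Mmp20 (chr9:7628124-7628154, plus): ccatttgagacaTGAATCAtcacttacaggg
Mmp7 (chr9:7692015-7692045, plus): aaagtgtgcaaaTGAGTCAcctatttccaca

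The matches began between 35 and 95 bases before the annotated start, at 35 bases for Mmp13 and 44 for Mmp12. Mmp8 and Mmp27, the remaining cluster genes, had no match in their windows. The 250 bases before the start are given for the neighbouring pair with opposite values, again with the match in capitals. For Mmp12 this is the second of its 2 annotated starts, the one whose window holds the match.
Mmp13 (chr9:7272264-7272513, plus): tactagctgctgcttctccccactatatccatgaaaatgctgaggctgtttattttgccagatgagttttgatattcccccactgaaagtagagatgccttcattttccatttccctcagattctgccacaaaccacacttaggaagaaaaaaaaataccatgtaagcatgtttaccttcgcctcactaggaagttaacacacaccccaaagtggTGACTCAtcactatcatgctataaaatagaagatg
Mmp12 (chr9:7347124-7347373, plus): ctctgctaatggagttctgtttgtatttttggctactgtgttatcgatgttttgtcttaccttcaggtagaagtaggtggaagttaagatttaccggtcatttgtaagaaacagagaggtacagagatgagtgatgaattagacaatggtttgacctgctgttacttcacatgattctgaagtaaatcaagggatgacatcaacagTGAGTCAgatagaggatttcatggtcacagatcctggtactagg

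Genes with a match ranged from the lowest to the highest level of the cluster. Mmp1b, Mmp3 and Mmp20, each with a match, had at most 0, 1 and 11 reads in any library. The 4 tested cluster genes, Mmp13, Mmp12, Mmp10 and Mmp7, all had a match. Mmp8 and Mmp27, without a match, had at most 9 and 5 reads. The letters CAGACA, the core of the SMAD-binding CAGA box, occurred in 7 of the 38 member windows, against 21.0% of all windows. GTGGGAA, a core recognised by the Notch partner RBPJ, occurred in 3 of the 38, against 6.38% of all windows. Both were near the share over all windows. The motifs were chosen after the expression values were known, and a match is a description of these letters only.

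**Figure D4:**
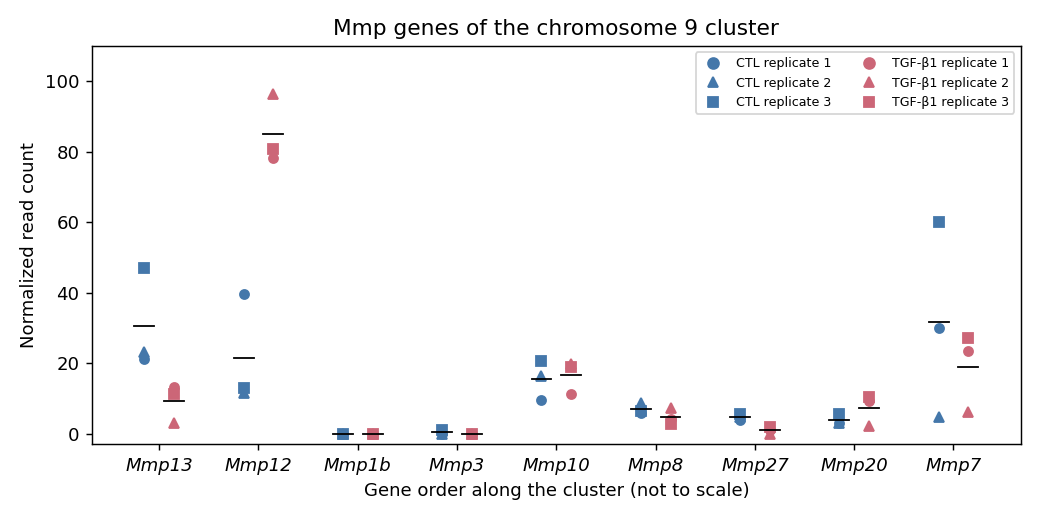
Normalized read count (y axis) of the 9 MMP genes of the chromosome 9 cluster in their order along the chromosome, with CTL cultures in blue, TGF-β1 cultures in red, a symbol for each replicate number and a bar at each group mean. Mmp12 sits at 78.2 to 96.3 with TGF-β1 and at 39.6 or less in CTL, Mmp13 lies lower with TGF-β1, and Mmp1b and Mmp3 are at or next to 0.

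Of the 4 TIMPs, Timp2, which both inhibits MMPs and takes part in pro-Mmp2 activation, was highest per kb of exon, followed by Timp1 and Timp3. Timp1, the inhibitor best known as a TGF-β-responsive gene, was at 2654, 3947 and 2591 normalized counts in CTL and 3842, 7535 and 3790 with TGF-β1. CTL replicate 2 lay above TGF-β1 replicates 1 and 3, while each pair moved upward, by 0.53, 0.93 and 0.55 on the log2 scale. It passed with the block (log2 fold change 0.68, adjusted p = 0.00105 by edgeR) and not on condition only (adjusted p = 0.206). Without both replicate 2 cultures it passed on condition only (adjusted p = 0.00283 by edgeR). It did not without both cultures of replicate 1 or 3 (0.543 and 0.329), or in any of the 6 fits without a single culture. Timp2 was at 22595, 31031 and 21399 in CTL and 23453, 32288 and 21858 with TGF-β1, so pairs differed by 0.06 or less on the log2 scale, and neither fit called it (adjusted p = 0.905 and 0.479 by edgeR). Timp3, the matrix-bound inhibitor that also blocks several ADAMTS enzymes, differed by 0.02 ± 0.17 (SE) on the log2 scale (adjusted p = 0.966 by edgeR), and 21.3% of its exon bases lie opposite Syn3. Scaling by library size alone gave Timp2 and Timp3 log2 fold changes of -0.03 and -0.06. Timp4 had at most 1 read in any library.

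Levels can be set side by side between genes only per length, so counts were divided by the kb of exon of each gene. Summed over the 22 MMPs, this level was 10592 ± 3803 in CTL and 14469 ± 5219 with TGF-β1 (SD, n = 3), and over the 4 TIMPs 11246 ± 2460 and 13724 ± 4076. In both sums the groups overlapped, while the TGF-β1 culture of each pair was the higher one. These sums were not tested. The ratio of the TIMP sum to the MMP sum was 1.11, 0.943 and 1.23 in CTL and 0.951, 0.902 and 1.03 with TGF-β1. It was lower with TGF-β1 in each pair, least in replicate 2. The mean difference was smaller than the SD within CTL, which also holds the replicate differences that pairs remove. The ratio was not tested. The ADAMTS and ADAMTSL sum was 7885 ± 1379 in CTL and 4304 ± 453 with TGF-β1 (SD, n = 3), and here the groups did not overlap (6471 to 9226 against 3929 to 4808). A few genes made up these sums. Mmp2 held 53.9% to 75.0% of the MMP sum in CTL and 61.0% to 76.3% with TGF-β1, and Adamts1 held 70.1% to 72.0% of the ADAMTS sum in CTL and 42.6% to 52.5% with TGF-β1.

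**Figure D5:**
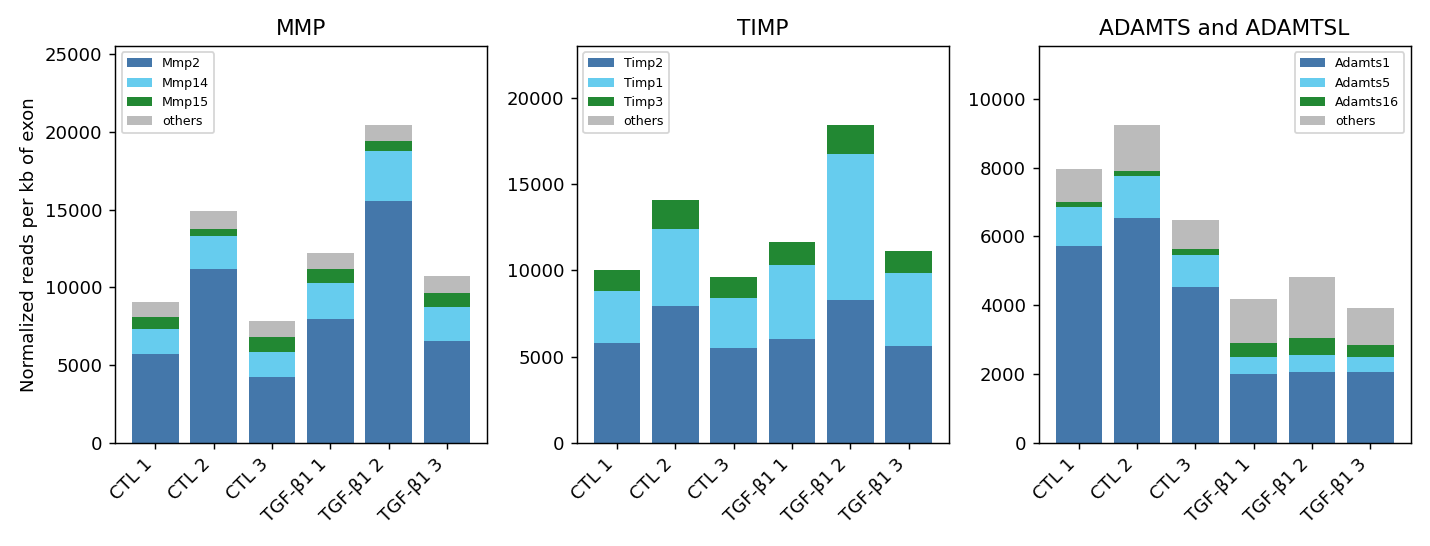
Normalized reads per kb of exon (y axes from 0, with a different range in each panel) summed by family in each culture, with the 3 highest genes of each family in colour and the rest in grey. The ADAMTS sum is lower in all TGF-β1 cultures, mainly in the dark blue Adamts1 segment, while MMP and TIMP sums are highest in the replicate 2 cultures of either group.

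The other 12 members could not be tested. Adamts13, Adamts18, Adamts19, Adamts20, Mmp1b, Mmp3, Mmp8, Mmp20, Mmp21, Mmp25, Mmp27 and Timp4 had at most 11 reads in any library. Mmp1b was the one at 0 in all 6 libraries, and 6 of the 12 never exceeded 3 reads.

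Genes that act with these families were read from 2 lists. Of 27 regulators and related proteases 22 were tested, and 5 were higher and 2 lower (9 and 6 with the block), with a median log2 fold change of 0.05. Over all genes 5.00% were higher and 6.69% lower, and 15.1% and 19.1% with the block. Higher were Htra1, a secreted serine protease (log2 fold change 1.29, adjusted p = 0.00379 by edgeR), the proprotein convertases Pcsk5 and Furin, which activate several proforms (1.27 and 0.53, adjusted p = 0.0182 and 0.0131), the procollagen C-proteinase Bmp1 (0.76, adjusted p = 0.0103) and its enhancer Pcolce2 (0.95, adjusted p = 0.0248). Lower were Pcolce, the other enhancer of Bmp1 (-1.68, adjusted p = 0.0422 by edgeR), and Adam8 (-1.20, adjusted p = 0.0397). The 2 enhancers thus had opposite signs, as did Adamts4 and the other called proteoglycanases.

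Of 15 matrix substrates 10 were tested, and 2 were higher and 0 lower on condition only (6 and 1 with the block), beside the same 5.00% and 6.69% of all genes (15.1% and 19.1% with the block). Versican (Vcan), a substrate of Adamts1, Adamts4, Adamts5, Adamts9 and Adamts15, rose from 7372 ± 1625 to 23239 ± 9111 normalized counts (SD, n = 3; log2 fold change 1.66 ± 0.31 SE, adjusted p = 0.026 by edgeR). Fibronectin (Fn1) rose from 285703 ± 12238 to 586823 ± 34151 (log2 fold change 1.04, adjusted p = 0.00379 by edgeR). These are RNA levels, and neither protease activity nor cleaved matrix was measured.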

How the data were processed

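Trim Galore, STAR 2.4.1d and HTSeq 0.6.1 are named in the submitters' processing notes, with the mouse build GRCm38. The authors deposited 1 table per culture of raw HTSeq read counts per gene, and whether the counting used strand is not given in the sources used here. Lines for reads on no single gene (25.4% to 25.9% of a table) were left out. Gene names, positions and exon lengths came from GENCODE M21 (46005 of 46517 identifiers matched).

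The members and lists were chosen with earlier results of these data known. Genes were kept by edgeR's filterByExpr, scaled by TMM and tested with edgeR 4.0.16 (R 4.3.3; robust quasi-likelihood fit, two-sided, Benjamini-Hochberg over 15862 genes, threshold 0.05) on condition only. Normalized counts are TMM-scaled to the geometric mean library size, per-kb levels divide them by exon length, and errors are SD or standard error (SE). Named are the members called in either fit, the 3 highest per kb in each family, members at 0, the strongest called list genes, and members added where a result turned on them. A gene of the TGF-β response list is not reported here.

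The labels number the cultures 1 to 3 in both groups. Same-numbered cultures correlated in their deviations from the group means at 0.34, 0.684 and 0.572, against -0.617 to 0.215 otherwise, so the replicate block was read as a pairing. The labels do not say that same-numbered cultures are pairs. Deviations within a group of 3 sum to 0, so positive values for matched numbers force some negative ones elsewhere. The match of replicate 1 was the least clear, because CTL replicate 1 also correlated with TGF-β1 replicate 3 at 0.215. DESeq2 1.42.0, limma-voom (limma 3.58.1), other scalings and filters, and fits without cultures were the alternatives. On simulated data for this comparison (15674 genes, of which 200 were given a log2 change of 1) the condition-only fit found 67% of those 200. Of its calls 4.96% were false. The blocked fit found 64.5%, with 14% false, and DESeq2 found 77%, with 22.6% false. The simulated counts held no replicate effect, so these shares do not rate the blocked fit on the real cultures. Fewer genes changed in them than were called in the real data, so no false share carries over to the real calls. No 2 libraries were alike within sampling noise (chi-square per degree of freedom at least 9.02). Depths and limits at 3 counts cover counting error only.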

Additional observations from a re-analysis of the deposited data

How the results depend on the processing

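The counts of 7 higher and 6 lower members stayed within 1.5 times under DESeq2 (9 and 7), RLE scaling (7 and 6), library size only (6 and 7), no filter (6 and 6), a minimum of 10 counts (6 and 5) and limma-voom (7 and 6). With the replicate block they were 14 and 10, with the block and library size only 13 and 11, and with the block without both replicate 2 cultures 14 and 10, the last 2 settings being chosen after seeing the data. A threshold of 0.01 left 1 higher and 5 lower. In the 6 fits without a single culture, 1 to 5 members were called higher and 5 to 6 lower. Leaving out both cultures of a number gave 0 to 11 higher (0 without replicate 1, 11 without replicate 2, 1 without replicate 3) and 0 to 5 lower (0, 5 and 3). Without both replicate 1 cultures edgeR called 0 of all genes, with 1938 at an unadjusted p under 0.05; the cause was not tested. All 13 called members kept their sign in every fit, 6 passed in all 6 fits without 1 culture, and 11 passed in every other test, scaling and filter that could be run on them; Adamts4 did not without a filter (adjusted p = 0.141 by edgeR) and Adamtsl2 did not with library size only (0.0516 by edgeR). The replicate block ended no call.

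The sign changed in some settings for 5 members that were not called on condition only, of which Adamts10 and Mmp23 were called with the block. Timp2 was at -0.028 with library size only and -0.027 with the block added, and Timp3 at -0.060 and -0.055. Without 1 culture or 1 number, Adamts10 ranged from -0.039 to 0.53, Mmp15 from -0.11 to 0.46, Mmp23 from -1.36 to 0.021, Timp2 from -0.15 to 0.23 and Timp3 from -0.13 to 0.18. Depth limits the 12 untested members, which had at most 11 reads in any library.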
